A study of Rattus norvegicus with 24 samples.

Results

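The genes of MHC class I antigen processing were followed in the spleen and liver of rats given cyclophosphamide, an alkylating drug that kills dividing cells. The set holds 9 genes of the 14201 that a single-gene probe set of the array names: B2m, Tap1, Tap2, Tapbp, Psmb8, Psmb9, Psmb10, Psme1 and Psme2. They were taken by gene symbol, from a set put together with earlier results of these data known, and each is read from its probe set with the highest mean level over the 24 arrays. All 9 had a value on every array, so none was lost to a filter on low values.

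The study compared 4 groups, each of 3 male wild-type Sprague-Dawley rats, an outbred stock, aged 46-49 days. The groups were cyclophosphamide with wood sticks in the cage, cyclophosphamide without them, vehicle with wood sticks and vehicle without them. Cyclophosphamide was given by mouth at 40 mg/kg/day for 5 days, and the vehicle rats had the carrier alone for the same time. Spleen and liver came from the same 12 rats, and 5 µg of RNA of each organ was labelled for a rat Affymetrix array.

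MHC class I molecules show peptides from inside the cell to cytotoxic T cells, and nearly every nucleated cell carries them. Proteasomes cut cytosolic proteins into peptides. In lymphoid tissue, and elsewhere after exposure to interferon-gamma, the subunits encoded by Psmb8, Psmb9 and Psmb10 take the place of the constitutive catalytic subunits encoded by Psmb5, Psmb6 and Psmb7, which gives the immunoproteasome. Psme1 and Psme2 encode the PA28 cap that opens the proteasome. Tap1 and Tap2 together form the pump that carries peptides into the endoplasmic reticulum, tapasin (Tapbp) bridges the pump and the empty class I molecule, and beta-2-microglobulin (B2m) is the light chain of the finished complex.

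The letters upstream of the genes are shown because interferon response and kappa-B motifs recur in them, and these are the classic regulatory motifs of this pathway. All 9 genes matched a RefSeq promoter entry (build GRCr8), and the 250 letters before each start were searched on both strands. The interferon response core GAAANNGAAA was present in 6 of the 9 genes (B2m, Tap1, Tap2, Tapbp, Psmb10 and Psme2), against 3.29% of 27457 rat promoters of the same length. The kappa-B motif GGGANTTTCC was present in 3 (B2m, Tap1 and Tapbp), against 0.317% of promoters. The STAT core TTCNNNGAA was present in 1 (Psmb8), against 7.52% of promoters. No 2 of these motifs share letters with another except the overlapping pair of interferon cores in Tapbp. A match is a description of the letters and not evidence that a factor binds there. In the stretches below, written 5′ to 3′ on the strand of the gene, capitals mark the interferon core or the kappa-B motif on either strand. The kappa-B match of Tapbp lies outside its stretch.
B2m, chr3:129549160-129549222, plus strand: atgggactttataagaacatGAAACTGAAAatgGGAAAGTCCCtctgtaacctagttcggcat
Tap1, chr20:4668569-4668684, minus strand: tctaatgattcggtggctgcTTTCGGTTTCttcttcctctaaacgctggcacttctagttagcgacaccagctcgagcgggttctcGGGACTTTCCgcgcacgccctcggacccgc
Tap2, chr20:4652308-4652357, minus strand: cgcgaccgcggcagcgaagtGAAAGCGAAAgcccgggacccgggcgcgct
Tapbp, chr20:4967881-4967910, minus strand: tttgaggGAAAATGAAAGTGAAAggaaaca
Psmb10, chr19:50743293-50743385, minus strand: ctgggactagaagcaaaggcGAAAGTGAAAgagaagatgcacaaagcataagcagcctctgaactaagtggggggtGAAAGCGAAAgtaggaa
Psme2, chr15:33052785-33052814, minus strand: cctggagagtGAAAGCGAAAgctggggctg

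Both B2m and Tap1 carry an interferon core and a kappa-B motif within 1 stretch, Psmb10 carries 2 interferon cores, and the cores of Tap2, Psmb10 (the one nearer its start) and Psme2 are the same 10 letters. Tap1 and Psmb9 lie head to head on chromosome 20 with 456 bases between their starts, so their windows share 44 bases. In the RefSeq gene order Tap2, Psmb8, Tap1 and Psmb9 follow one another between the class II genes RT1-DOb and RT1-DMb.

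The arrays differed in how many probe sets were left blank by the authors. Liver arrays had 4924 to 6060 blanks, with the highest number in rat 2003, whose values correlated at 0.887 on average with the other liver arrays against 0.929 or more for each of those. Spleen arrays of rats 1001, 1003 and 1005 (vehicle without wood, the whole group) and 2005 (cyclophosphamide without wood) had 1778 to 1920 blanks, and the other 8 had 1021 to 1183. For the drug effect in spleen, calls lost in a fit of the 8 arrays with few blanks are stated. Some liver values are also given without rat 2003. Vehicle spleen against vehicle liver, the subunit pairs and the marker sums were not recomputed without the spleen arrays with many blanks as a set. The summed level of 6 hepatocyte markers was 15.8 to 15.98 on the log2 scale in the livers, and that of the 5 of them present on every spleen array was 7.55 to 9.75 in the spleens.

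Spleen carried more class I processing transcript than liver. Among the 6 vehicle rats, 8 of the 9 genes were higher in spleen than in liver, where 79.5% of 12474 genes tested differed and 59.2% were higher, and the median difference was 1.90 log2 units for the 9 genes and 0.72 for all genes. The largest differences belonged to immunoproteasome subunits and the pump. Psmb9 (probe set 1370186_at), the subunit that replaces Psmb6, had a lowest, median and highest log2 intensity of 11.3, 11.51 and 11.74 in vehicle spleens, against 8.35, 8.51 and 9.27 in vehicle livers. Its difference was 2.90 ± 0.15 log2 units (SE), or 7.46-fold (limma adjusted p = 1.94e-12). Psmb10 (1374033_at), which replaces Psmb7, differed by 2.73 ± 0.163 and Psmb8 (1367786_at), which replaces Psmb5, by 1.90 ± 0.142. For each of these 3 genes every vehicle spleen was above every vehicle liver.

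Tap2 (1368732_at) differed between vehicle spleen and liver by 2.31 ± 0.207 log2 units and Tap1 (1388149_at) by 2.02 ± 0.157. Of the PA28 cap, Psme2 (1367710_at) differed by 1.46 ± 0.0709 and Psme1 (1367663_at) by 0.85 ± 0.0667. Tapasin (1369726_at) had a smaller difference, 0.67 ± 0.201 (limma adjusted p = 0.00518), below the median of all genes. B2m was the exception. Its probe set (1367595_s_at) read 13.31, 13.44 and 13.55 (lowest, median and highest) in vehicle spleens and 13.39, 13.42 and 13.44 in vehicle livers, a difference of 0.02 ± 0.0504 (limma adjusted p = 0.683). A second, dimmer B2m probe set, averaged with it, gave 0.48 (limma adjusted p = 4.58e-07), so the B2m result depends on the probe set. With averaging over probe sets the differences of Psme1 (0.16, adjusted p = 0.201) and Tap1 (0.93, adjusted p = 0.257) also lost their calls. In whole organs, more cells of a type and more RNA per cell cannot be told apart, and the same holds for fewer cells and less RNA below.

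**Figure D1:**
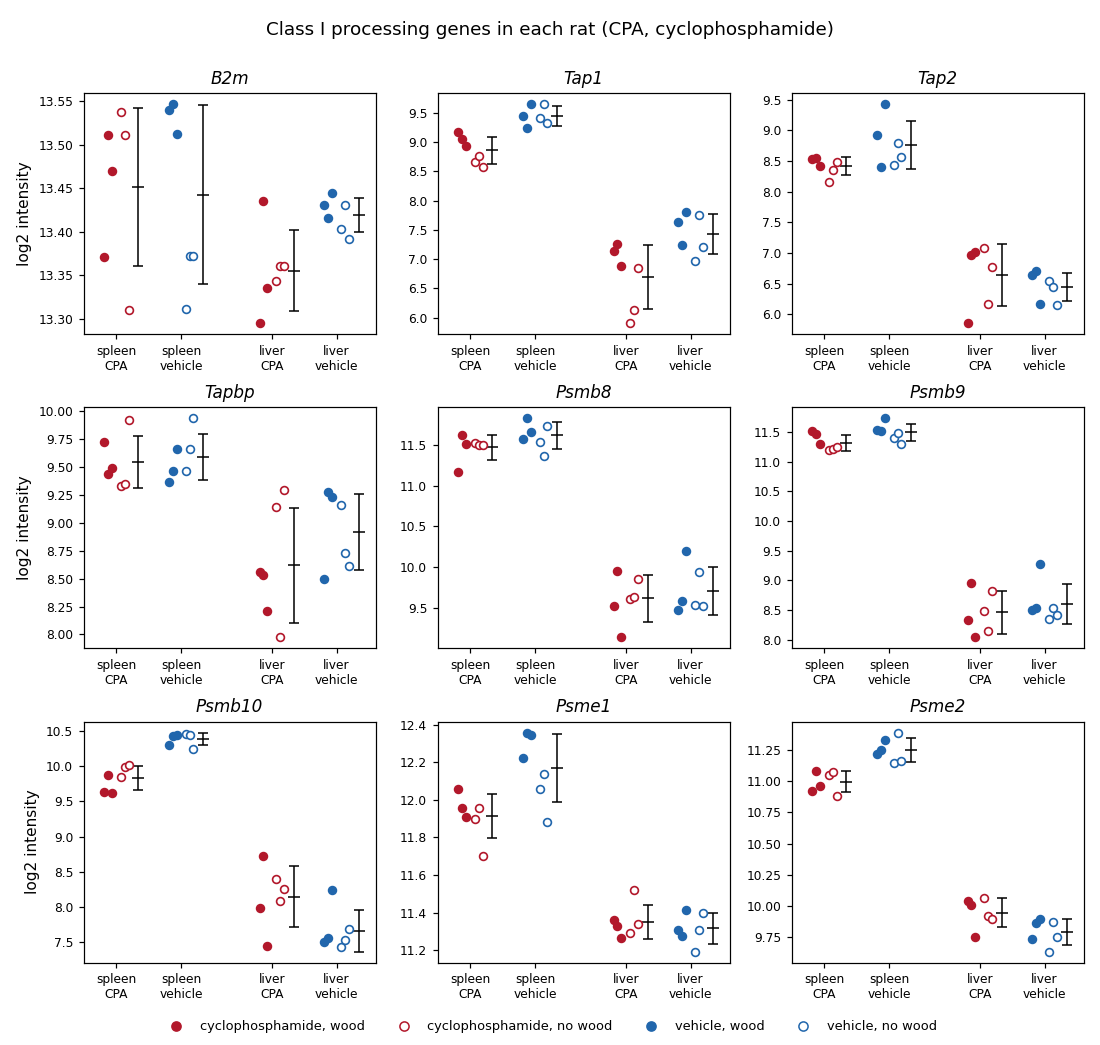
Log2 intensity of the 9 genes (y axis, one panel per gene with its own range) in each rat, in spleen and liver, cyclophosphamide left of vehicle in each organ. Filled points are rats with wood and open points rats without, and bars give the mean and SD of 6 rats. Psmb10, Tap1 and Psme2 show separate drug and vehicle ranges in spleen, and no gene does in liver.

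In spleen, 5 of the 9 genes were lower after cyclophosphamide and none was higher: Tap1, Psmb10, Psme1, Psme2 and Psmb9. Of all 13614 genes tested in spleen 55% changed and 28.1% were lower, so the share of the 9 that changed was near that of all genes, while the direction was the same for each of the 5. The median change was -0.25 log2 units for the 9 genes and -0.02 for all genes. By size among all genes in spleen, the change of Tap1, the largest, was at the 68.5th percentile and that of Psmb10 at the 66.4th. Psme1 (36.5th), Psme2 (36.4th) and Psmb9 (25.4th) lay below the middle.

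Tap1, a chain of the peptide pump, read 9.18, 9.06 and 8.93 log2 units in the spleens of cyclophosphamide rats with wood and 8.66, 8.77 and 8.58 in those without. Vehicle spleens read 9.44, 9.24 and 9.65 with wood and 9.41, 9.66 and 9.32 without. Every drug spleen was below every vehicle spleen. The change was -0.59 ± 0.0912 log2 units (SE), or 0.665 of the vehicle level (limma adjusted p = 0.000381). It was -0.39 among rats with wood (adjusted p = 0.0379) and -0.79 among rats without (adjusted p = 0.000932). The call with wood was lost in a fit of only the groups compared (adjusted p = 0.0659), and both were lost with the mean of both Tap1 probe sets, at -0.48 with wood (adjusted p = 0.127) and -0.55 without (adjusted p = 0.0784).

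Psmb10, an immunoproteasome subunit, read 9.63, 9.87 and 9.62 in cyclophosphamide spleens with wood and 9.85, 9.98 and 10.01 in those without. In vehicle spleens it read 10.3, 10.42 and 10.44 with wood and 10.46, 10.44 and 10.24 without. The groups did not overlap, and all 6 drug spleens were the lower ones. Psmb10 fell by 0.56 ± 0.0707 log2 units, to 0.679 of the vehicle level (limma adjusted p = 0.000104). The change was -0.68 with wood (adjusted p = 0.000517) and -0.43 without wood (adjusted p = 0.00631). With a term for the 4 spleen arrays with many blanks the change without wood was -0.37 and was no longer called (adjusted p = 0.0846).

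The PA28 genes both fell by about 0.25 log2 units. Psme2 had a lowest, median and highest value of 10.88, 11.01 and 11.08 in cyclophosphamide spleens, against 11.14, 11.23 and 11.39 in vehicle spleens. These ranges did not overlap, and the change was -0.25 ± 0.0665 (limma adjusted p = 0.00871). Psme1 had 11.7, 11.93 and 12.06 in cyclophosphamide spleens against 11.88, 12.18 and 12.36 in vehicle spleens. Its ranges overlapped, with a change of -0.25 ± 0.0696 (adjusted p = 0.011). In all, 3 of the 9 genes (Psmb10, Tap1 and Psme2) had drug spleens entirely below vehicle spleens, where 14.5% of genes tested did.

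Psmb9 was the weakest of the 5. It had 11.2, 11.28 and 11.52 (lowest, median and highest) in cyclophosphamide spleens against 11.3, 11.51 and 11.74 in vehicle spleens, and the ranges overlapped. The change was -0.17 ± 0.0642 log2 units (limma adjusted p = 0.0419). The call was lost on leaving out any of the rats 1001, 1003, 2001, 2003, 3001, 3005, 4003 and 4005, with adjusted p from 0.0504 to 0.0949 and changes of -0.14 to -0.19. It was also lost with the term for the arrays with many blanks (-0.16, adjusted p = 0.132) and with median centring (-0.16, adjusted p = 0.055). The other 4 calls were kept on leaving out each of the 12 rats. They were also kept, as was that of Psmb9, when only the 8 spleen arrays with few blanks were fitted, a choice made after seeing the data that leaves no vehicle rat without wood: Tap1 was then -0.56, Psmb10 -0.58, Psme1 -0.36, Psme2 -0.24 and Psmb9 -0.28.

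The other 4 genes did not pass in spleen. Tap2, the partner chain of Tap1, had 8.16, 8.45 and 8.54 (lowest, median and highest) in cyclophosphamide spleens against 8.4, 8.68 and 9.43 in vehicle spleens. The change of -0.35 ± 0.156 had an adjusted p of 0.0857 (limma), and without rat 3003, a vehicle rat with wood, the change was -0.48 (adjusted p = 0.00771). Psmb8 had a change of -0.15 with a 95% interval of -0.36 to 0.07, and Tapbp one of -0.05 with an interval of -0.33 to 0.23. B2m, at 13.31 to 13.54 in cyclophosphamide spleens and 13.31 to 13.55 in vehicle spleens, had a change of 0.01 with an interval of -0.12 to 0.14. The intervals of Psmb8 and Tapbp leave room for falls as large as that of Psme1. The B2m probe set read 13.29 to 13.55 on all 24 arrays, near the top of the scale, and the dimmer second set had a change of -0.08 ± 0.0882 in spleen, so no statement on the stability of B2m is made.

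Markers of some cell types, B cell and erythroid above all, moved in the same spleens by much more. The summed level of 4 B cell markers was 7.7 to 9.27 log2 units in cyclophosphamide spleens against 13.27 to 13.65 in vehicle spleens, and that of 3 erythroid markers was 6.51 to 7.56 against 12.73 to 13.77. The 6 macrophage markers all rose, with a summed level of 14.67 to 14.86 in cyclophosphamide spleens against 13.75 to 14.11 in vehicle spleens, and so did the 5 endothelial markers (12.36 to 12.54 against 11.67 to 11.83). The 6 T cell markers ranged from 11.78 to 12.5 against 12.08 to 12.57, and the 6 NK cell markers from 10.63 to 11.36 against 11.22 to 11.6, so both overlapped. The T cell sum joins markers that went opposite ways: Cd4 rose by 1.16 ± 0.123 and Cd5 fell by 0.53 ± 0.106. The summed level of 5 exocrine pancreas markers was 7.78 to 13.33 in cyclophosphamide spleens, against 7.61 to 9.24 in vehicle spleens, which also overlapped. The part of these cell types in the class I changes was not tested.

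In liver, no gene of the set passed the test for cyclophosphamide with limma, where 0.812% of 12683 genes did. At an unadjusted p under 0.05 there were 2 of 9 (Tap1 and Psmb10), where 14.3% of all genes passed. The median change of the 9 genes was -0.06 log2 units, and that of all genes -0.02. No drug and vehicle ranges were separate for any of the 9 genes, where 3% of genes had separate ranges in either direction.

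Both genes with a low unadjusted p stood out in size. Tap1 had 7.14, 7.26 and 6.89 log2 units in livers of cyclophosphamide rats with wood and 5.91, 6.13 and 6.84 in those without. Vehicle livers had 7.63, 7.24 and 7.8 with wood and 6.97, 7.76 and 7.2 without. The 4 lowest of these 12 livers were drug livers, and 2 drug livers lay within the vehicle range. The change was -0.74 ± 0.198 (95% interval -1.18 to -0.3, limma adjusted p = 0.143). Psmb10 had 7.98, 8.72 and 7.44 in livers of cyclophosphamide rats with wood and 8.4, 8.08 and 8.25 in those without, against 7.5, 7.57 and 8.24 in vehicle livers with wood and 7.44, 7.54 and 7.68 without. All drug livers but rat 4005 were above all vehicle livers but rat 3005. The change was 0.49 ± 0.215 (95% interval 0 to 0.97, adjusted p = 0.345). Without the outlying liver array of rat 2003 the change was -0.7 for Tap1 (adjusted p = 0.194) and 0.53 for Psmb10 (adjusted p = 0.346).

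The other 7 genes had changes in liver between -0.3 (Tapbp) and 0.2 (Tap2), and without rat 2003 these were -0.09 and 0.32. Their precision differed. The interval was -0.19 to 0.06 for B2m and -0.13 to 0.19 for Psme1, but -0.85 to 0.25 for Tapbp and -0.34 to 0.73 for Tap2, so the interval of Tapbp leaves room for a fall as large as that of Tap1 in spleen. In these livers 6 macrophage markers had a summed level of 10.27 to 11.21 after cyclophosphamide against 11.54 to 11.95 with vehicle, and Clec4f, a Kupffer cell marker, fell by 0.84 ± 0.141 (limma adjusted p = 0.0341). That call was lost without rat 1001, 1003, 1005, 3001, 3003, 3005, 4001 or 4005, with changes of -0.76 to -0.89 and adjusted p of 0.06 to 0.0872. B and dendritic cell markers were dim in liver, with 1 marker of each type present on every array and levels of at most 7.38. The part of these cells in the liver values was not tested.

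**Figure D2:**
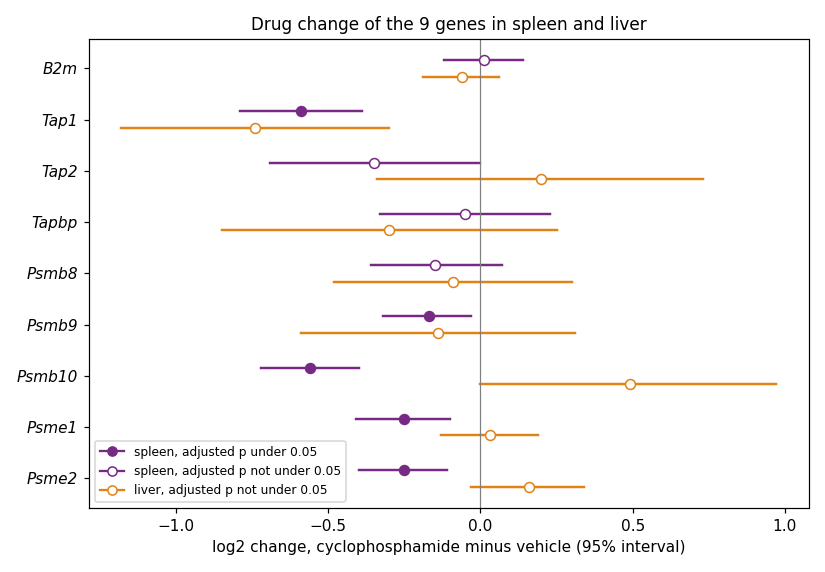
Log2 change (cyclophosphamide minus vehicle, x axis) with its 95% interval for each of the 9 genes (y axis), spleen above liver. Filled points passed the test. Psmb10 lies at -0.56 in spleen and 0.49 in liver with intervals that do not meet, while Tap1 lies at -0.59 and -0.74.

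The drug effect itself differed between the organs for 3 of the 9 genes, where 33.1% of 12474 genes did, and each of the 3 had the lower change in spleen, as 14.7% of genes did. For Psmb10 the difference, spleen minus liver, was -1.04 ± 0.23 log2 units (limma adjusted p = 0.00192). For Psme2 it was -0.41 ± 0.1 (adjusted p = 0.00416), with a change of -0.25 in spleen and 0.16 in liver. For Psme1 it was -0.29 ± 0.0943 (adjusted p = 0.0252), but this call was lost without rat 1001 (-0.25, adjusted p = 0.0706), 1003 (-0.26, 0.0685), 3003 (-0.26, 0.0727) or 4003 (-0.28, 0.057). The difference for Tap1 was 0.15 with a 95% interval of -0.32 to 0.62, and its change was negative in both organs. The difference for Tap2 was -0.54 (interval -1.16 to 0.07), and passed without rat 4001 (-0.74, adjusted p = 0.0423).

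Each immunosubunit was also set against the constitutive subunit it replaces, on the same array. Psmb10 minus Psmb7 was -1.31 to -0.67 log2 units in cyclophosphamide spleens and -0.41 to 0.03 in vehicle spleens, with means of -1.05 ± 0.228 and -0.24 ± 0.176 (SD, n = 6 each). The groups did not overlap, and the drug shifted the difference by -0.81 (two-sided exact permutation p = 0.00216, the smallest that 6 against 6 allows, adjusted p = 0.00866 over 4 tests). Psmb7 itself rose in spleen by 0.25 ± 0.0664 (limma adjusted p = 0.00934), though not with the term for the arrays with many blanks (0.18, adjusted p = 0.0676) or in the 8 arrays with few blanks (0.14, adjusted p = 0.186).

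In liver Psmb10 minus Psmb7 was -3.28 to -2.06 in cyclophosphamide rats and -3.37 to -2.46 in vehicle rats, a shift of 0.57 (two-sided exact permutation p = 0.0455, adjusted p = 0.0909). Without rat 3005 or rat 4005 the adjusted p was 0.0303 (0.7) and 0.0173 (0.73). Psmb8 minus Psmb5 shifted by -0.16 in spleen (exact permutation p = 0.188, adjusted p = 0.251) and by 0.16 in liver (exact permutation p = 0.478). Psmb5 had a change of 0.01 in spleen (-0.03 after quantile normalisation) and -0.25 in liver, neither of which passed. The third pair could not be read, because no probe set names Psmb6 alone. Such differences compare changes and not amounts, since probe sets differ in brightness.

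**Figure D3:**
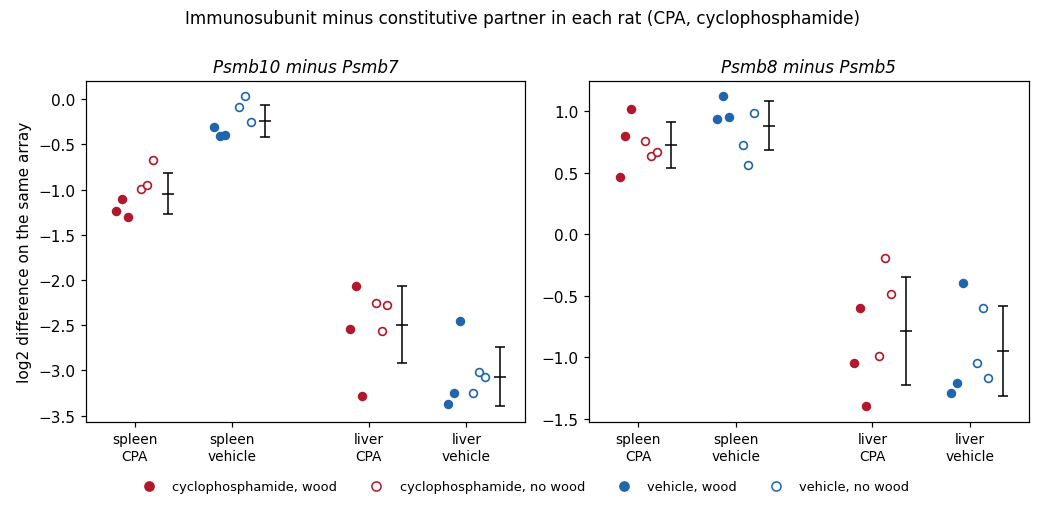
Log2 difference between an immunosubunit and its constitutive partner on the same array (y axis, one panel per pair) in each rat, in spleen and liver, cyclophosphamide left of vehicle. Bars give the mean and SD of 6 rats. For Psmb10 minus Psmb7 the drug spleens all lie at or below -0.67, and the vehicle spleens at or above -0.41.

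A second probe set exists for 3 of the 9 genes, and these did not all read alike. For Psme1 the second set (1394006_at), much dimmer than the first, had a change in spleen of 1.12 ± 0.122 log2 units (limma adjusted p = 5.61e-05 over all 29020 probe sets), opposite to the -0.25 of the first (1367663_at). Its vehicle range of 3.66 to 6.91 was wide, against 6 to 6.91 in cyclophosphamide spleens, and averaging both sets turned the Psme1 change in spleen to 0.43 (adjusted p = 0.000551) and its difference between organs to 0.44 (adjusted p = 0.0494). Among rats with wood alone the mean of both sets gave -0.27 in spleen (adjusted p = 0.0576), the sign of the first set, so the turn rests on the rats without wood, whose vehicle arrays all have many blanks. For B2m the second set (1371440_at) read 10.89 to 11.16 in cyclophosphamide livers against 11.25 to 11.6 in vehicle livers. The ranges were separate, but the change of -0.36 ± 0.106 had an adjusted p of 0.217. For Tap1 the second set (1375379_at) was near the bottom of the scale, with a value on 5 liver arrays only, and its change in spleen was -0.44 ± 0.308.

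Other genes of the pathway were tested in the same fits. Of 15 regulators tested in spleen, 3 were higher and 6 lower, a share near the 55% of all genes called there. Nlrc5, the transactivator of class I genes, had 7.58, 7.71 and 7.92 (lowest, median and highest) in cyclophosphamide spleens against 7.63, 7.97 and 8.21 in vehicle spleens, a change of -0.25 ± 0.0803 (limma adjusted p = 0.0243). That call was lost without rat 1001, 2003, 3001, 3005 or 4005, with changes of -0.21 to -0.23 and adjusted p up to 0.0566. Rfx5, which binds class I and class II promoters, fell by 0.54 ± 0.0614, and Nfkb1, a kappa-B binding subunit, fell by 0.58 ± 0.0764. Jak2, a kinase of the interferon-gamma receptor, rose by 0.65 ± 0.0972, and Ifngr2, a chain of that receptor, by 0.44 ± 0.104.

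Irf1, an activator that binds interferon response elements, had a change of -0.23 in spleen that did not pass (limma adjusted p = 0.196). Without rat 2005 it was -0.35 (adjusted p = 0.00808), and with array weights -0.3 (adjusted p = 0.0328). Rat 2005 has the only drug spleen array with many blanks, so without it all such arrays are vehicle arrays. With the term for the arrays with many blanks the Irf1 change was 0.02 (adjusted p = 0.867). Ifng itself was dim, at 2.88 to 4.35 in cyclophosphamide spleens and 3.7 to 4.87 in vehicle spleens, with no call. In liver 2 of 15 regulators were lower and none higher, where 0.812% of 12683 genes were called in either direction. Irf8, a myeloid and B cell factor, fell by 1.5 ± 0.137 (limma adjusted p = 0.00221). Ifngr1 fell by 0.4 ± 0.0747 (adjusted p = 0.0471), a call lost without any rat but 2001, with adjusted p of up to 0.114 and changes of -0.37 to -0.43. Median centring (adjusted p = 0.0764) and the mean of all probe sets (adjusted p = 0.0608) also lost it. Nlrc5 had a change of -0.41 in liver (adjusted p = 0.312).

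Of 6 loading partners, 4 were higher in drug spleens and none lower, where 55% of all genes were called in either direction. The thiol oxidoreductase Pdia3 rose by 0.34 ± 0.0549 log2 units (limma adjusted p = 0.000494), Hspa5 by 0.34 ± 0.102, calnexin (Canx) by 0.23 ± 0.0611 and calreticulin (Calr) by 0.19 ± 0.0655. With the term for the arrays with many blanks Pdia3 alone of these kept its call, with 0.23, 0.2 and 0.1 for the others at adjusted p of 0.128 for Hspa5, 0.0511 for Canx and 0.232 for Calr. The call of Calr was also lost without any of 9 rats, all but 1001, 2005 and 4005, with adjusted p of up to 0.0802 and changes of 0.16 to 0.19. These proteins also fold many other glycoproteins and secreted proteins. Exocrine pancreas markers had a summed level of 7.78 to 13.33 log2 units in cyclophosphamide spleens, against 7.61 to 9.24 in vehicle spleens. These ranges overlapped. The part of such tissue in these rises was not tested. None of the 6 passed in liver, where 0.812% of 12683 genes did. Their liver changes ran from 0 to 0.74 log2 units with a median of 0.38, against -0.02 for all genes. At an unadjusted limma p under 0.05 there were 4 of 6, where 14.3% of all genes passed.

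Of 7 peptidases tested in spleen, 2 were higher and 2 lower, again near the 55% of all genes called. Lnpep, which trims peptides in endosomes, rose by 0.66 ± 0.0889, though averaging its probe sets gave -0.86 (adjusted p = 0.0842). Lap3, a leucine aminopeptidase, rose by 0.36 ± 0.123, with the call lost without rat 1001 (0.3, adjusted p = 0.0697), 2001 (0.33, 0.0692), 3001 (0.33, 0.0676) or 3003 (0.37, 0.0513), and in the 8 arrays with few blanks (0.2, 0.369). Thop1, which degrades peptides in the cytosol, fell by 0.64 ± 0.127. Tpp2, a large cytosolic peptidase, fell by 0.26 ± 0.0592, though the fit of the 8 arrays with few blanks gave -0.11 (adjusted p = 0.306). Of 5 constitutive and assembly genes, Psmb7 alone passed.

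Among 12 class I heavy chain genes, limma called 1 higher and 2 lower for the drug in spleen, where 55% of all genes were called, and 0 in liver, where 0.812% were. RT1-S3 fell by 0.61 ± 0.12 log2 units (limma adjusted p = 0.00164) and RT1-N3 by 0.33 ± 0.12 (adjusted p = 0.0385). RT1-A3 rose by 0.59 ± 0.167 (adjusted p = 0.0129), but not in the 8 arrays with few blanks (0.27, adjusted p = 0.248) or on averaging its probe sets (0.14, adjusted p = 0.889). The call of RT1-N3 was lost without rat 1001, 1005, 2001, 3003, 3005, 4001 or 4005, with adjusted p of up to 0.085 and changes of -0.25 to -0.35, and with the term for the arrays with many blanks (-0.31, 0.121). Heavy chain genes are close copies of each other, and a probe set named for one may read its relatives, so these values are uncertain as to gene.

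No gene of the 9 passed the test for wood sticks, though Psme1 in vehicle spleens did under 5 of 10 other settings and without rat 2005. In spleen limma called 0 of 9 for wood against no wood, both among cyclophosphamide rats, where 0% of all genes passed, and among vehicle rats, where 15.1% did. At an unadjusted p under 0.05 there were 3 of 9 in each of these comparisons, where 8.62% and 34% of all genes passed. The largest changes were 0.39 for Tap1 among cyclophosphamide spleens (adjusted p = 0.502) and 0.32 for Tap2 among vehicle spleens (adjusted p = 0.332). Psme1 among vehicle spleens had 12.22, 12.36 and 12.35 with wood against 12.06, 12.14 and 11.88 without, a change of 0.28 (adjusted p = 0.0797). These ranges did not overlap, and neither did those of B2m and Psmb9 in the same spleens. Among cyclophosphamide spleens those of Tap1 and Psmb9 were separate by wood. The share of all genes with separate ranges by wood was not counted. All 3 vehicle rats without wood are among the arrays with many blanks, so the array difference and the housing cannot be told apart in vehicle spleens.

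In liver 0 of 9 genes passed for wood in either drug group, as did 0% of all genes, with 1 of 9 at an unadjusted p under 0.05 among cyclophosphamide livers (Tap1, 0.8, adjusted p = 0.584), where 7.76% of genes were, and 0 among vehicle livers, where 3.82% were. The interaction of drug and wood, that is the drug effect with wood minus that without, passed for 0 of 9 genes in spleen, where 0.705% of genes did, and for 0 of 9 in liver, where 0% did. At an unadjusted p under 0.05 it was 0 of 9 in either organ, where 13% of genes were in spleen and 5.12% in liver. The largest values were 0.41 for Tap1 in spleen (95% interval 0 to 0.81) and 0.56 for Tap1 in liver (-0.33 to 1.45). By housing, limma called 4 of 9 genes for the drug in spleen with wood, Psmb10, Tap1, Psme1 (-0.33, adjusted p = 0.0225) and Psme2 (-0.28, adjusted p = 0.0401), where 38.4% of genes passed, and all 6 arrays of that comparison have few blanks. Without wood it called 2 of 9 (Tap1 and Psmb10), where 45.1% passed. The call of Tap1 with wood was lost without rat 2001, 3001, 3005, 4003 or 4005 (adjusted p 0.052 to 0.134, changes -0.28 to -0.39). That of Psme1 was lost without rat 3003, 3005, 4003 or 4005 (adjusted p 0.0611 to 0.0723, changes -0.3 to -0.32), and that of Psme2 without rat 1005, 2001, 3001, 3003, 3005, 4001 or 4005 (adjusted p 0.0501 to 0.12, changes -0.24 to -0.3). In liver the drug was called for 0 of 9 genes both with wood, where 0.0473% of genes passed, and without, where 0.15% did, with 0 of 9 (8.12% of genes) and 2 of 9 (11.9% of genes) at an unadjusted p under 0.05.

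Within the groups, the 3 immunosubunits of liver varied together from rat to rat. Psmb8 and Psmb9 correlated at r = 0.88 over 12 livers (permutation p = 0.00024, adjusted p = 0.0167 over 72 pairs of genes and organs) with a Spearman rho of 0.76 (permutation p = 0.00612, adjusted p = 0.0609). Without the 2 rats farthest from the median of Psmb8 r was 0.70, and it was 0.88 among cyclophosphamide rats, 0.87 among vehicle rats and 0.91 for deviations from the group means. Psmb10 had r = 0.84 with Psmb8 and 0.88 with Psmb9 for these deviations, though only 0.58 and 0.57 over all 12 livers (permutation adjusted p = 0.166 for both). Without the 2 rats farthest from the median of Psmb8 or Psmb9 these fell to 0.49 and 0.3. Over all 36 liver pairs of the 9 genes the median r for deviations was 0.3. The permutations shuffled all 12 livers without regard to group, and the values for deviations were not tested.

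The pattern can be read from single rats. Among vehicle livers with wood, rat 3005 had 10.2, 9.27 and 8.24 for Psmb8, Psmb9 and Psmb10, against 9.47, 8.49 and 7.5 in rat 3001 and 9.59, 8.53 and 7.57 in rat 3003. Among cyclophosphamide livers with wood, rat 4003 had 9.96, 8.95 and 8.72 for the same genes, against 9.52, 8.34 and 7.98 in rat 4001 and 9.14, 8.04 and 7.44 in rat 4005. In both groups with wood 1 rat was the highest for all 3 genes. The groups without wood did not show this: rat 2005 among cyclophosphamide livers and rat 1003 among vehicle livers were the highest for Psmb8 and Psmb9, but for Psmb10 the highest were rat 2001 (8.4, against 8.25 in rat 2005) and rat 1005 (7.68, against 7.54 in rat 1003). The spleens of the same rats did not show this: r of the deviations was -0.56 for Psmb8 with Psmb9, 0.11 for Psmb8 with Psmb10 and 0.51 for Psmb9 with Psmb10.

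**Figure D4:**
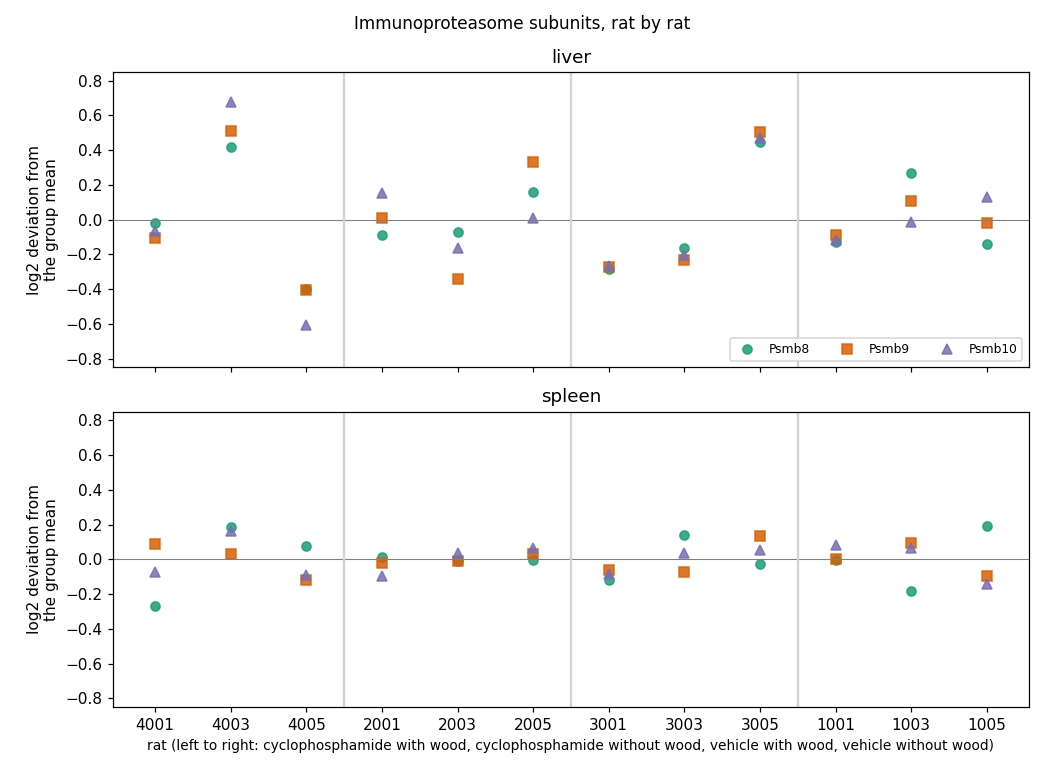
Deviation of Psmb8, Psmb9 and Psmb10 from their group mean (y axis, log2 units) in each rat (x axis), liver above and spleen below. In liver the 3 symbols of rats 4003, 4005 and 3005 lie together and far from 0, while the spleen symbols stay closer to 0.

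In spleen Tap1 separates the drug rats from the vehicle rats, so its relations were read within them. Tap1 and Psmb9, the head-to-head neighbours, had r = 0.91 among cyclophosphamide rats, 0.54 among vehicle rats and 0.83 for deviations from the group means. Tap1 and Tap2 had 0.58, 0.77 and 0.75 in the same order, Tap1 and Psme2 0.07, 0.74 and 0.61, and Tap1 and Psme1 0.82, 0.18 and 0.6. Tap1 ran the opposite way to Psmb8, with -0.46, -0.72 and -0.67. With Psmb10 r was -0.7 among cyclophosphamide rats and 0.4 among vehicle rats, but 0.24 for the deviations. The -0.7 spans both housings: cyclophosphamide spleens with wood had the higher mean of Tap1 (9.06, against 8.67 without) and the lower mean of Psmb10 (9.71, against 9.95). The values among cyclophosphamide or vehicle rats rest on 6 rats each, and all of these are descriptions. Psmb9 with Psme1, both called lower after cyclophosphamide, had r = 0.84 over 12 spleens (permutation p = 0.00072, adjusted p = 0.0167) and rho 0.83 (permutation p = 0.00143, adjusted p = 0.032). Without the 2 farthest rats r was 0.80, and for deviations from the group means it was 0.48. Tap1 with Psme2 had r = 0.82 over 12 spleens (permutation p = 0.0016, adjusted p = 0.023) and rho 0.86 (permutation p = 0.00059, adjusted p = 0.032). In liver Psmb10 and Psme2 had r = 0.78 (permutation p = 0.00338, adjusted p = 0.0348) and rho 0.83 (permutation p = 0.00155, adjusted p = 0.032), with 0.69 without the 2 farthest rats and 0.64 for deviations. The permutations shuffled all rats of an organ without regard to group. Their p-values therefore include shifts between groups that both genes share, and the values for deviations were not tested.

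By the rule of likeness, the genes whose values ran closest to the mean of the 9 genes over 12 livers were Dixdc1 (r = 0.85), Syt1 (0.83), Abca3 (0.82), Itih1 (0.82) and Irgm (0.82), of 10790 genes with a value on every liver array. Over 12 spleens they were Cc2d1b (0.96), Ccrl2 (0.95), Khnyn (0.94), Ctbp1 (0.94) and Ly6e (0.94), of 12828 genes. In deviations from the group means, a measure added after seeing the data, the closest in liver were Capn1 (0.92), Itih1 (0.92), Afap1l1 (0.91), Gbp2 (0.90) and Tmsb4x (0.90), so Itih1 alone was in both lists. In spleen they were Aamp (0.96), Pigq (0.94), Znfx1 (0.93), Ankfy1 (0.92) and Dnajc8 (0.91), and none was in both. These are descriptions over arrays that share scaling, and the highest of so many values of r is high by selection.

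Some heavy chain probe sets varied between rats by more than any of the 9 genes did. The range over 12 rats was 3.02 log2 units in liver and 1.92 in spleen for RT1-A, and 3.33 and 2.64 for RT1-CE16, against 0.15 and 0.24 for B2m and at most 1.89 and 1.27 for any of the 9 genes (Tap1 in liver and Tap2 in spleen). These ranges span the drug groups. RT1-CE16 had a drug change of -1.8 ± 0.382 in liver (limma adjusted p = 0.0954 over all probe sets) and -1.02 ± 0.417 in spleen (adjusted p = 0.0692). Within groups its SD was 0.712 in liver and 0.795 in spleen, and that of RT1-A 0.948 and 0.59. Rat 1003, a vehicle rat without wood, read 7.07 for RT1-A in liver and 8.62 in spleen. Rat 4001, a cyclophosphamide rat with wood, read 8.43 and 9.76, and the other 10 rats read 9.42 or more in liver and 10.05 or more in spleen.

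The same rats were the lowest for RT1-CE12, with 8.88 (rat 1003) and 9.72 (rat 4001) in liver against 10.81 or more in the others, and 10.38 and 10.53 in spleen against 10.79 or more. For RT1-CE5 rat 1003 read 6.11 in spleen against 8.46 or more in the others. For RT1-N2 it read 3.89 in spleen, against 7.85 or more in the others, and was blank in liver. RT1-CE16 ran the other way, with rat 1003 the highest in both organs, at 9.16 in liver and 10.16 in spleen. The 6 probe sets drawn were chosen after their values were seen. What sets these rats apart was not tested.

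**Figure D5:**
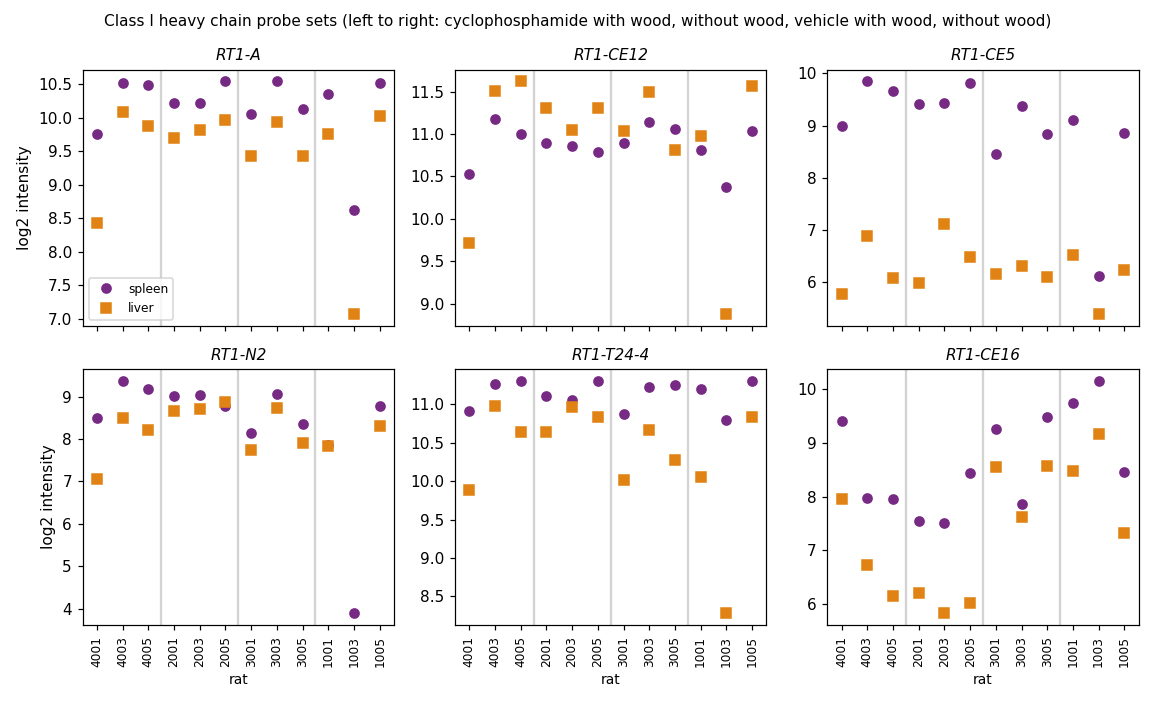
Log2 intensity (y axis) of 6 heavy chain probe sets in each rat (x axis), in spleen and in liver. Rat 1003 stands low for RT1-A, RT1-CE12, RT1-CE5, RT1-N2 and RT1-T24-4 and high for RT1-CE16, in at least 1 organ each, and rat 4001 stands low for RT1-A and RT1-CE12.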

How the data were processed

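The deposited values are log10 intensities of probe sets; the probe summary and scaling are not given in the sources used here. The base was inferred: leaving out the extremes at either end, values span 2143-fold as log10 and 10.1-fold as log2. They were multiplied by log2(10) without rescaling, and 77831 blank cells (10.5%) stayed missing. Of 30980 probe sets 20792 name 1 gene in an old platform annotation, and a gene is read from its set of highest mean log2(intensity + 16).

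For each organ limma 3.58.1 (R 4.3.3; lmFit, eBayes) estimated 4 group means, and 8 for organ differences, over genes with a value in every group, with Benjamini-Hochberg adjustment at 0.05. The drug effect averages both housings. The number of arrays limits the precision. The fit was tested on simulated data.

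The members and lists were chosen with earlier results of these data known. Named are the 9 genes, up to 4 called genes per pathway list and up to 2 per marker list by size, and Psmb5, Psmb6, Psmb7, Nlrc5, Irf1 and Ifng; 1 further gene of this rule is not reported here. Marker sums use markers present on every array of an organ. The pair of Psmb9 was planned but not tested, as Psmb6 has no probe set of its own.

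Organs are paired by the animal labels; liver and spleen deviations of a rat correlated at -0.058 to 0.17 (10530 genes), above 0.1 in 2 of 12 rats.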

Additional observations from a re-analysis of the deposited data

Results flagged for a closer look

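The drug effect differed between spleen and liver by its own test for 3 of the 9 genes, a share like the 33.1% of all genes that differed. The difference, spleen minus liver, was -1.04 log2 units for Psmb10 (limma adjusted p = 0.00192), -0.41 for Psme2 (adjusted p = 0.00416) and -0.29 for Psme1 (adjusted p = 0.0252). Psmb10 and Psme2 kept this call without each of the 12 rats in turn. Psme1 rests on the choice of probe set, since the mean of both its sets gave 0.44.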

How the results depend on the processing

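Counts of the 9 genes called were recomputed without each rat in turn and under the other settings. Without 1 rat the count for the drug in spleen was 4 to 6 (5 as reported), with wood 1 to 4 (4) and without wood 2 to 2 (2). It was 2 to 4 (3) for the difference between organs, 8 to 8 (8) for spleen against liver, 0 to 1 (0) for wood in vehicle spleens, and 0 to 0 in the liver comparisons. With wood it was 2 without rat 2001, 3001 or 4003 and 1 without rat 3005 or 4005. For wood in vehicle spleens it was 1, Psme1, without rat 2005, and also under quantile normalisation, median centring, the mean of all probe sets, eBayes with trend and robust, and array weights. The subunit pairs gave 1 to 1 in spleen and 0 to 1 in liver, the 1 being without rat 3005 or 4005. With the mean of all probe sets the drug count with wood was 2 (Psmb10 and Psme2) and the interaction in spleen 1 (Psme1). When the 4 spleens with many blanks had their own model term, the drug count without wood was 1 (Tap1). The cause was not tested.

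Signs turned as follows. Quantile normalisation gave -0.03 for Psmb5 in spleen and -0.03 for B2m between organs. Median centring gave 0 for the Psmb9 difference. The mean of all probe sets gave -0.01 for Psme1 in liver, and in spleen -0.04 for B2m, 0.43 for Psme1, -0.86 for Lnpep and -0.05 for Psmb5, with 0.44 for the Psme1 difference. Array weights gave 0.02 for the Psmb8 difference. The blank term gave -0.06 for B2m, 0.14 for Tapbp and 0.02 for Irf1 in spleen, and the 8 arrays with few blanks, a setting added after seeing the data, -0.05 for B2m. Without 1 rat the range was -0.01 to 0.04 for B2m, -0.03 to 0.06 for Psmb5 and -0.15 to 0.01 for Tapbp in spleen, -0.19 to 0.02 for Psmb8 in liver, and -0.18 to 0.03 for the Psmb8 and -0.13 to 0.08 for the Psmb9 difference. Over all other settings but the single rats, 786 of the named values kept direction and side, 24 lost their call and 4 gained one.

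With the animal as a replicate block the counts stayed 3 for the difference between organs and 8 for spleen against liver, and no call of the 9 genes changed. Over all genes the drug calls in liver, 103 as reported, ranged from 35 (without rat 1001) to 206 (eBayes with trend and robust), those in spleen, 7485, from 4971 (genes at or above the median level) to 8461 (array weights), and those of the difference, 4129, from 2637 to 4749 for the same 2 settings. Dim genes near the bottom of the scale, such as Ifng, are the least certain.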
